A study of Rattus norvegicus with 6 samples.

Results

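The Wnt ligands, their receptors and co-receptors, the R-spondins, the secreted antagonists and 3 intracellular or nuclear genes of the pathway were examined in cultured rat ovarian granulosa cells. Members were chosen by a rule on gene symbols, with earlier results of these data known. The rule takes the Wnt, Fzd, Dkk, Sfrp, Rspo and Axin families, Lgr4 to Lgr6, Lrp5, Lrp6, Frzb, Wif1, Rnf43, Znrf3, Lef1 and Tcf7. The rule found 46 of the 17525 genes in the table. The cells came from SD rats aged 21 days that had received PMSG (a gonadotropin from mare serum that makes follicles grow) at 60 IU, 48 h before the ovaries were taken, per the series' design text. Cells were released with pancreatic enzyme, passed through a sieve and grown in serum-containing medium, so each library is a bulk culture. All 3 libraries described are titled ATR. The series' title names atrazine, a triazine herbicide, but the labels do not spell out ATR. Dose, duration and what was exposed (animals or cultures) were not given in the sources used here. Since the 3 libraries titled Control are not analysed here, effects of an exposure cannot be read from these values. Whether each ATR library stands for its own animal or culture is not stated in the labels either, so the spread between them may be technical.

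Wnt proteins are secreted, lipid-modified ligands that bind Frizzled receptors together with the co-receptors Lrp5 and Lrp6. In the best-known branch this binding stops the destruction of beta-catenin, which then acts in the nucleus with factors of the TCF and LEF family. R-spondins bind Lgr receptors and hold back Rnf43 and Znrf3, a pair of membrane ubiquitin ligases that remove Frizzleds from the cell surface. Sfrp proteins, Frzb and Wif1 bind Wnts outside the cell, while Dkk proteins act on the co-receptors. In the ovary, Wnt4 and Rspo1 are known for their part in female gonad development.

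The libraries, called ATR 1, ATR 2 and ATR 3, held 18677194 to 19170515 reads assigned to genes. Levels are given in TPM, which is scaled for transcript length and library size, so that genes can be compared with each other. Errors are SDs over the 3 libraries. Of the listed markers of granulosa cells, 16 of 18 reached a mean of 1 TPM, while the anti-Mullerian hormone gene Amh and the aromatase gene Cyp19a1 stood at 0.070 and 0.057 TPM. So did 9 of 13 surface epithelium, 10 of 11 stromal fibroblast and 9 of 9 smooth muscle and pericyte markers measured, and 71.4% of all genes. Of the theca, leukocyte, endothelial and oocyte markers measured, 3 of 7, 5 of 8, 1 of 6 and 1 of 5 did. The highest granulosa, surface epithelium, stromal fibroblast and smooth muscle markers were, in that order, Gja1 at 1906, Upk3b at 1403, Col14a1 at 301 and Tagln at 10890.5 TPM. The levels of members are thus those of the whole culture. In bulk cultures, fewer cells of a type and less RNA per cell cannot be told apart.

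Most of the pathway's abundance lay in a few genes. Of the 46 members, 28 (60.9%) had a mean of 1 TPM or more, against 71.4% of all genes. Only 14 reached 10 TPM and 2 reached 100 TPM: the secreted antagonists Sfrp4 and Dkk3. The median member stood at 2.14 TPM, and the median of all genes at 10.1 TPM. Every role had at least 1 member above 1 TPM.

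**Figure D1:**
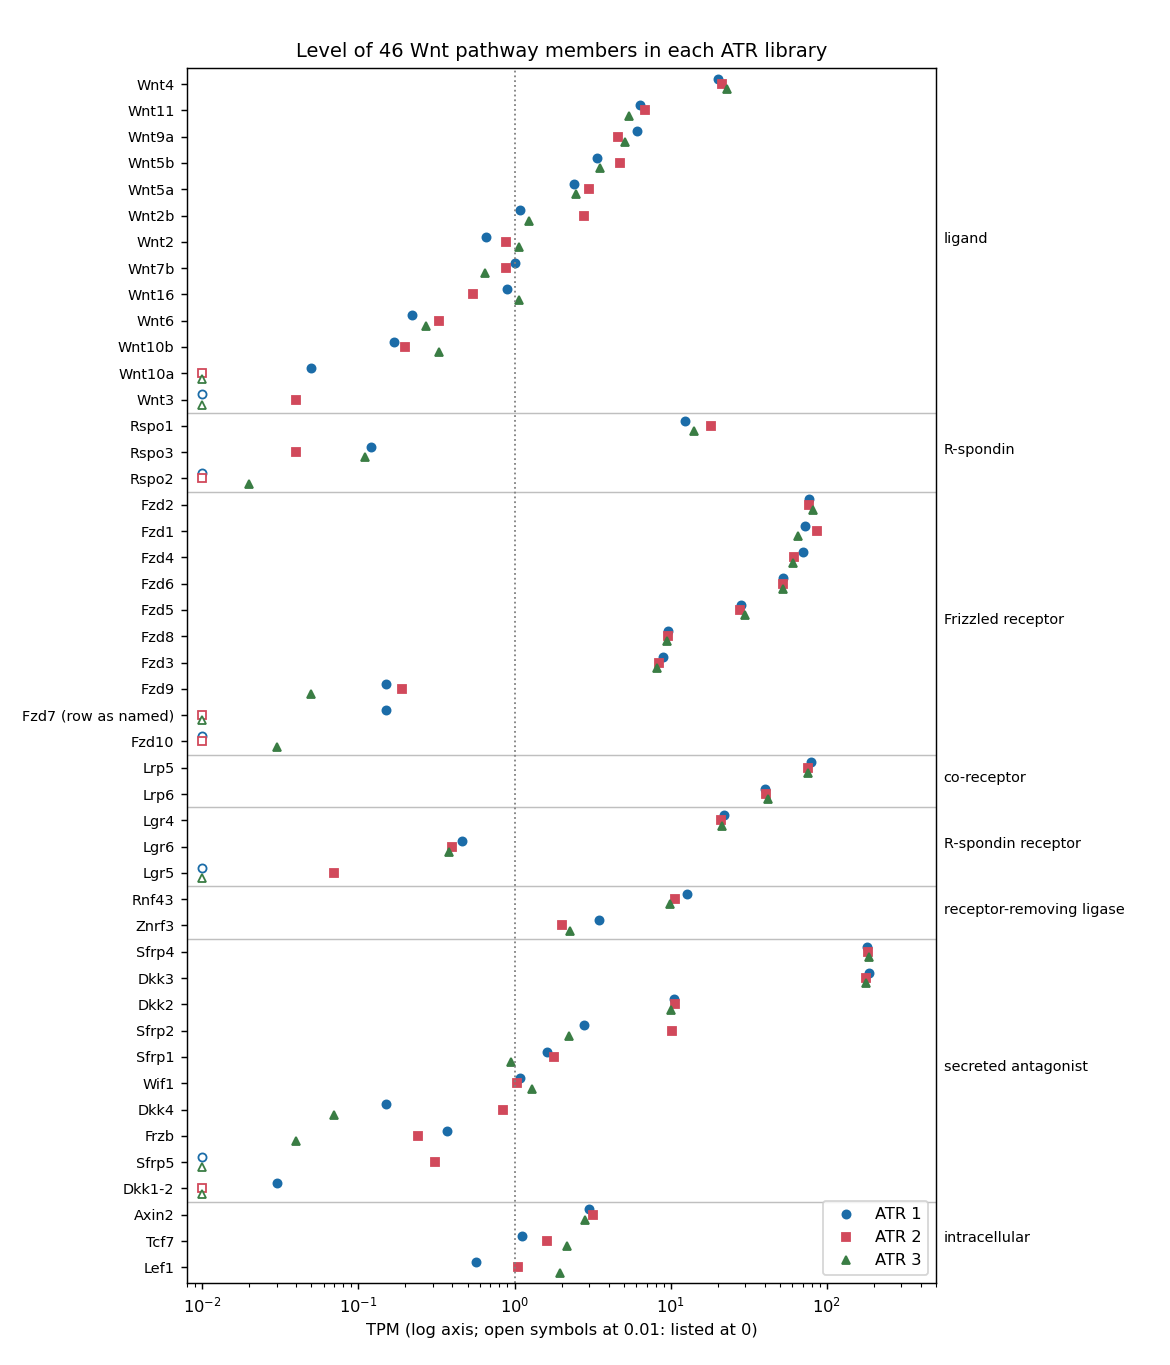
Level of each member in the 3 ATR libraries, in TPM on a log axis, grouped by role and ordered by mean; each symbol is 1 library, open symbols at the left edge are listed at 0, and the dotted line marks 1 TPM. Sfrp4 and Dkk3 stand furthest right at 177 to 187 TPM, while Wnt4 is the only ligand beyond 10 TPM.

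Among the 13 Wnt ligands measured, 6 reached 1 TPM and only Wnt4 reached 10 TPM. Wnt4, a ligand of granulosa and stromal cells of the developing ovary, stood at 20.19 TPM in ATR 1, 21.40 in ATR 2 and 23.08 in ATR 3, or 21.6 ± 1.45 TPM (SD, n = 3). It made up 47.5%, 46.3% and 52.1% of the summed TPM of all ligands. The next ligand, Wnt11, which is linked to beta-catenin-independent signalling, stood at 6.24 ± 0.733 TPM. Wnt4 was above Wnt11 in each library, by 3.15, 3.11 and 4.24 times. Wnt9a followed at 5.28 ± 0.756 TPM, and its range over the libraries overlapped those of Wnt11 above it and Wnt5b below it. Wnt5b stood at 3.86 ± 0.735 and its close relative Wnt5a at 2.63 ± 0.335 TPM. Both are classed with beta-catenin-independent signalling, and the Wnt5b to Wnt5a ratio was 1.40, 1.56 and 1.42.

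Wnt2b, a ligand that acts through beta-catenin, was uneven, at 1.09, 2.77 and 1.24 TPM, with the high value in ATR 2. The other 7 ligands had means from 0.013 to 0.870 TPM. Wnt2, Wnt7b and Wnt16 lay between 0.830 and 0.870 TPM and overlapped each other. Wnt6 and Wnt10a, which are neighbours in the rat genome, stood at 0.273 and 0.017 TPM, the latter from a single read. RefSeq lists 8 more protein-coding rat genes that match the naming rule. These, Wnt1, Wnt3a, Wnt7a, Wnt8a, Wnt8b, Wnt9b, Rspo4 and Axin1, are not analysed here.

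Of the R-spondins only Rspo1 was above 1 TPM. Rspo1 stood at 12.31, 18.19 and 13.99 TPM, a mean of 14.8 ± 3.03 TPM (SD, n = 3), and was higher in ATR 2 than in either other library. Rspo3 had 1 read in each library and Rspo2 had 1 read in all, in ATR 3. The R-spondin receptors showed the same concentration in a single member. Lgr4 stood at 21.97, 21.09 and 21.42 TPM, 52.0 times the mean of Lgr6 at 0.413 ± 0.042 TPM. Lgr5, known as a stem cell marker of epithelia that include the ovarian surface, had 0, 3 and 0 reads, where a count of 0 allows up to 3 reads. The Rspo1 to Lgr4 ratio was 0.560, 0.862 and 0.653 in the 3 libraries.

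The Frizzled receptors were broadly expressed. Of the 10 rows with a Frizzled name, 7 reached 1 TPM, and their summed level of 317 ± 8.27 TPM was between 6.94 and 7.49 times that of the ligands. Fzd2 led at 76.97, 76.84 and 81.57 TPM. Fzd1 stood at 72.02, 86.97 and 65.39 TPM and Fzd4, also the receptor of the non-Wnt ligand norrin, at 70.30, 61.27 and 60.95 TPM. The ranges of Fzd2 and Fzd1 overlapped, as did those of Fzd1 and Fzd4. Fzd6 varied little, at 52.4 ± 0.327 TPM (SD, n = 3), and lay below Fzd4 in each library. Fzd5 at 28.5 ± 1.13, Fzd8 at 9.57 ± 0.0625 and Fzd3 at 8.49 ± 0.371 TPM followed without overlap between neighbours. Fzd9 and Fzd10 stood at 0.130 and 0.010 TPM.

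The row named Fzd7 needs care. It stood at 0.15 TPM in ATR 1 and is listed at 0 in the others, but RefSeq gives its gene identifier to Cdk15, a cyclin-dependent kinase. The identifier that RefSeq gives to Fzd7 belongs to a row named LOC100360552, which stood at 20.19, 26.37 and 23.30 TPM, a mean of 23.3 ± 3.09 TPM (SD, n = 3). By identifier, Fzd7 would thus be a well-expressed receptor just below Fzd5, and the low value of the row with its name would belong to another gene. The LOC100360552 row is not counted among the 46 members. It is also outside the summed level of the Frizzleds and its ratio to the ligands, which would be higher with it. With it in place of the named row, 29 of 46 members reached 1 TPM.

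Both co-receptors were present at steady levels. Lrp5 stood at 79.04, 76.21 and 75.77 TPM and Lrp6 at 39.99, 41.02 and 41.67 TPM. Lrp5 exceeded Lrp6 by 1.98, 1.86 and 1.82 times. Of the ligases that remove Frizzleds, Rnf43 stood at 12.73, 10.66 and 9.92 TPM and Znrf3 at 3.47, 2.00 and 2.26 TPM. Both were highest in ATR 1, and Rnf43 was above Znrf3 in each library.

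Secreted antagonists were the most abundant role, at a summed 384 ± 4.26 TPM, which was 9.06, 8.37 and 8.56 times the summed level of the Wnt ligands. Sfrp4, which has been described in ovarian granulosa and luteal cells, stood at 181.38, 183.79 and 187.44 TPM. Dkk3, an atypical Dickkopf protein whose action on Wnt signalling is disputed, stood at 187.31, 178.37 and 176.92 TPM. Their ranges overlapped, and together they held 95.7%, 93.5% and 96.1% of the antagonists' TPM. Without Dkk3 the antagonists stood at 4.66, 4.52 and 4.57 times the ligands. That was below the Frizzleds in each library, which stood at 6.94 to 7.49 times the ligands. The top rank of the antagonists thus depends on counting Dkk3, and without it the Frizzleds were the most abundant role. Ratios of summed transcripts are not ratios of proteins.

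The other 8 antagonists were far lower. Dkk2 stood at 10.48, 10.60 and 10.10 TPM. Sfrp2, which had the largest log2 SD of the tested members, stood at 2.80, 10.23 and 2.23 TPM, with ATR 2 alone high. Sfrp1 stood at 1.61, 1.80 and 0.95 TPM and Wif1 at 1.14 ± 0.140 TPM, with overlapping ranges. Dkk4, Frzb, Sfrp5 and the row named Dkk1-2, whose identifier is that of Dkk1, had means of 0.010 to 0.353 TPM. Dkk4 had 2, 11 and 1 reads.

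**Figure D2:**
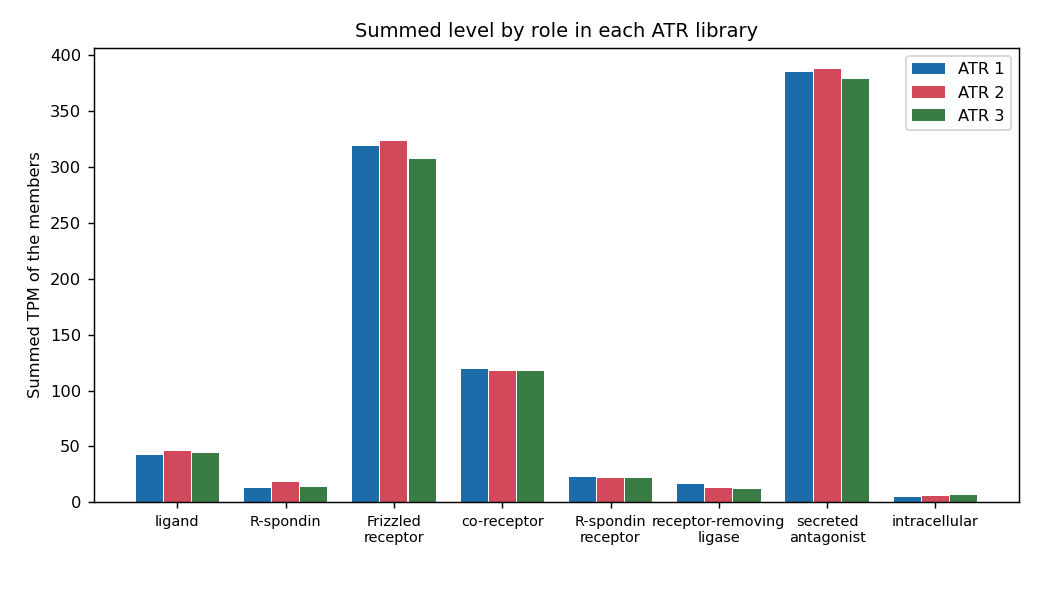
Summed TPM of the members of each role in the 3 ATR libraries; each bar is 1 library and the axis starts at 0. Antagonists (379 to 387 TPM) and Frizzleds (307 to 324 TPM) stand far above the ligands (42.5 to 46.2 TPM) in each library.

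The 3 intracellular members were low. Axin2, a scaffold of the beta-catenin destruction complex and a widely used readout of beta-catenin activity, stood at 3.01, 3.18 and 2.83 TPM, from 84, 89 and 81 reads. The transcription factors Tcf7 and Lef1, which bind beta-catenin and are themselves often induced by it, stood at 1.11, 1.61 and 2.16 TPM and at 0.57, 1.05 and 1.96 TPM. Both were lowest in ATR 1 and highest in ATR 3, while Axin2 hardly differed between libraries.

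For each gene, the 3 read counts were set against the scaled library sizes in a chi-square test, with Benjamini-Hochberg adjustment over all genes with at least 30 reads. The test asks whether counts differ by more than counting noise, and compares libraries, not conditions. Of 31 members tested, 9 (29.0%) passed the adjusted threshold of 0.05, against 23.2% of all 13309 genes tested, so the share among members was near the background. The remaining 15 members had fewer than 30 reads in all. The 9 were Sfrp2, Sfrp1, Wnt2b, Rspo1, Fzd1, Fzd4, Znrf3, Tcf7 and Lef1. When the typical spread between these libraries was added to counting noise, as the common dispersion that edgeR estimates over all genes, 3 of the 31 (9.68%) passed, against 3.25% of all genes. These 3 were Sfrp2, Wnt2b and Lef1. With CPM as the library-scaled read level, the median SD of log2(CPM + 0.5) was 0.11 for the tested members and 0.086 for all genes tested.

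**Figure D3:**
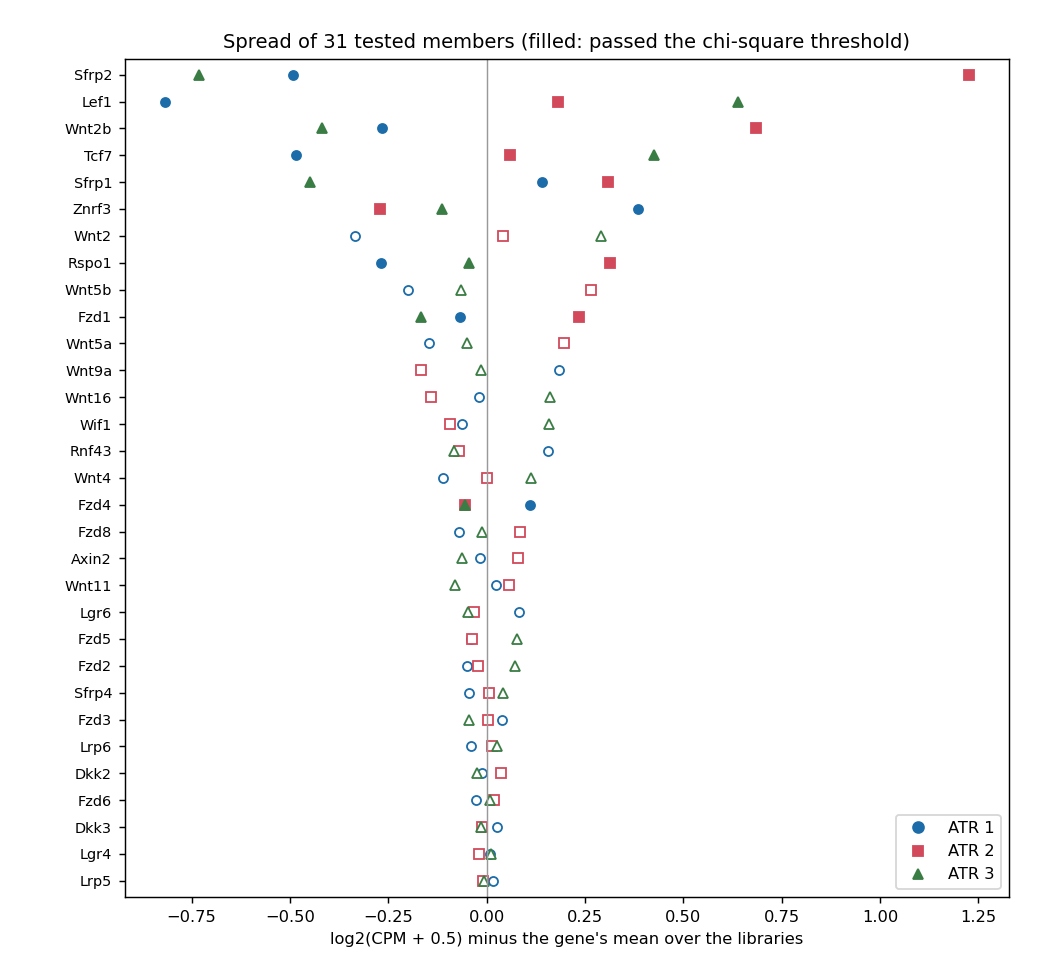
Deviation of each of the 31 tested members from its own mean in the 3 ATR libraries, on the log2(CPM + 0.5) scale, ordered by spread; each symbol is 1 library, and filled symbols mark the 9 members that passed the chi-square threshold. Sfrp2 in ATR 2 lies at 1.23 and Lef1 in ATR 1 at -0.82, while the receptors at the foot of the plot lie close to 0.

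Of the 9 members, 5 were highest in ATR 2, as were 32.1% of all genes that passed, and the difference between these shares was not tested. Sfrp2 had 49, 180 and 40 reads, a scaled ratio of ATR 2 to ATR 1 of 3.73 (exact 95% interval 2.71 to 5.23) and of ATR 2 to ATR 3 of 4.57 (3.23 to 6.61). Its adjusted p was 1.73e-29 by the chi-square test and 2.07e-17 with the common dispersion added. Sfrp4 and Sfrp2 are related antagonists with unlike behaviour: Sfrp4 did not pass (adjusted p = 0.166), and the Sfrp4 to Sfrp2 ratio was 64.8, 18.0 and 84.1. Wnt2b had 60, 123 and 53 reads, a ratio of ATR 2 to ATR 1 of 2.08 (1.52 to 2.89) and of ATR 2 to ATR 3 of 2.36 (1.69 to 3.32). With the common dispersion its adjusted p was 0.00014.

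Rspo1 had 189, 283 and 222 reads, and was 1.52 times (1.26 to 1.84) as high in ATR 2 as in ATR 1. Fzd1 was 1.23 times (1.17 to 1.30) as high in ATR 2 as in ATR 1 and 1.32 times (1.26 to 1.39) as high as in ATR 3. Sfrp1, from 56, 63 and 34 reads, was close to the threshold (adjusted p = 0.042 by the chi-square test). The row with the RefSeq identifier of Fzd7 was also highest in ATR 2, at 1.33 times (1.19 to 1.501) its level in ATR 1. With the common dispersion added, Rspo1, Fzd1 and Sfrp1 no longer passed, with adjusted p of 0.317, 0.661 and 0.538, nor did the Fzd7 identifier row (0.984). Without ATR 2 none of these 5 members passed the chi-square threshold, at adjusted p of 0.619 for Sfrp2, 0.755 for Wnt2b, 0.317 for Rspo1, 0.060 for Fzd1 and 0.107 for Sfrp1. Since they were grouped by their high value in ATR 2, this loss is partly built in. Sfrp1 did not pass without ATR 3 either (0.697).

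**Figure D4:**
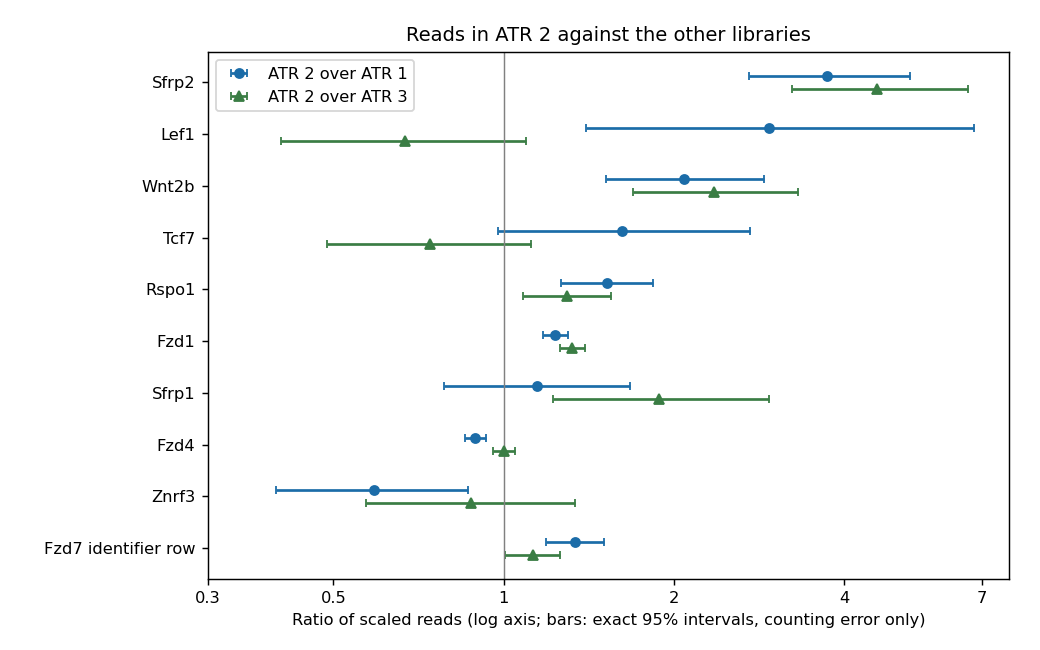
Ratio of scaled reads in ATR 2 to ATR 1 (circles) and to ATR 3 (triangles) on a log axis for the 9 members that passed the chi-square threshold and for the row with the Fzd7 identifier; bars are exact 95% intervals that cover counting error only. For Sfrp2, Wnt2b, Rspo1, Fzd1 and the row with the Fzd7 identifier both intervals lie above 1, while the ATR 2 to ATR 3 intervals of Lef1, Tcf7, Fzd4 and Znrf3 include 1.

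Promoters are shown for Sfrp2, Wnt2b, Rspo1 and Fzd1, the 4 members with both intervals above 1, and, for comparison, for Axin2. Each is the 250 bases before the annotated start, from RefSeq on rat build GRCr8, read 5′ to 3′ along the gene. Capitals mark the TCF/LEF core CTTTGA or its reverse complement TCAAAG, searched on both strands.
Sfrp2 chr2:171387286-171387535 (+ strand): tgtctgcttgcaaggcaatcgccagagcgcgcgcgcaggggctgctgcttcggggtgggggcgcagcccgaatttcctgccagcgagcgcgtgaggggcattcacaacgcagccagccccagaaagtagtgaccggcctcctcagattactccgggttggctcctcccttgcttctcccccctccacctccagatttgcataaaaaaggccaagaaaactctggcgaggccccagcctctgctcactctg
Wnt2b chr2:195156946-195157195 (- strand): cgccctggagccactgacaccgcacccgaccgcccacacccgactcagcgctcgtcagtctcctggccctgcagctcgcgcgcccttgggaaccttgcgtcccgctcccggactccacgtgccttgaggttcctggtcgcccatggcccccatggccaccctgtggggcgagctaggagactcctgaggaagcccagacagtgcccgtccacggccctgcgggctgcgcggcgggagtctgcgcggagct
Rspo1 chr5:142536040-142536289 (+ strand): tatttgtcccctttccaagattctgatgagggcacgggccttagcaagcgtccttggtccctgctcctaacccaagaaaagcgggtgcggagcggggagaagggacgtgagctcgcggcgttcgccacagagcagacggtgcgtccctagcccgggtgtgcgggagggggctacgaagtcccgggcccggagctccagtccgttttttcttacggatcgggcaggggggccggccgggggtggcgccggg
Fzd1 chr4:30264824-30265073 (+ strand): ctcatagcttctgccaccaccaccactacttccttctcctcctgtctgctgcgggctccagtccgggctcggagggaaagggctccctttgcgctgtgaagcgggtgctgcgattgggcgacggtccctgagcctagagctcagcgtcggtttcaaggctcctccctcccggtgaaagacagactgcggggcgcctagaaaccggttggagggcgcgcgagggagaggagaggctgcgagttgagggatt
Axin2 chr10:94398535-94398784 (+ strand): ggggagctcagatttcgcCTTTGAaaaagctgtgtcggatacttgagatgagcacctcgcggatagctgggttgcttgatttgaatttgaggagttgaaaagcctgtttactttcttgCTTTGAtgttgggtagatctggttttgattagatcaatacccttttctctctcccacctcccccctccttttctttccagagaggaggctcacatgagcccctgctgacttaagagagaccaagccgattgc

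The core was found at 2 places in the Axin2 stretch, beginning 232 and 132 bases before the start, and in none of the other 4. Of the 29 members with a promoter entry, 2 held it (6.90%), Axin2 and Dkk1, against 13.9% of 33469 rat promoter stretches of the same length and 11.3% of those of genes in the table. A match of these letters is a description and not a binding site, and the libraries carry no measurement of binding. The stretches of the members had a median GC content of 63.2%, against 58.0% for genes in the table.

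Tcf7 and Lef1 were highest in ATR 3. Lef1 had 9.55, 29.27 and 44.32 estimated reads, a scaled ratio of ATR 3 to ATR 1 of 4.40 (2.18 to 9.81), and an adjusted p of 0.006 with the common dispersion added. Tcf7 had 27, 43 and 59 reads, a ratio of 2.19 (1.37 to 3.59), and did not pass with the common dispersion (adjusted p = 0.232). Without ATR 1 neither passed the chi-square threshold, at adjusted p of 0.319 for Lef1 and 0.396 for Tcf7. Tcf7 did not pass without ATR 3 either (0.177). Both genes were already described as lowest in ATR 1 and highest in ATR 3, so these losses are partly built in. Axin2 differed by less than the test could tell from counting noise (adjusted p = 0.861).

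Fzd4 and Znrf3 were highest in ATR 1. Fzd4 in ATR 2 stood at 0.891 (0.853 to 0.931) of its ATR 1 reads and Znrf3 at 0.589 (0.396 to 0.864), from 76, 44 and 51 reads. Their adjusted p with the common dispersion was 1.00 for Fzd4 and 0.556 for Znrf3. Without ATR 1 neither passed, at adjusted p of 0.995 and 0.776, and Znrf3 did not pass without ATR 2 (0.129). The loss without ATR 1 is partly built in, since both were grouped by their high value there.

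The other 22 tested members did not pass. They include the most abundant antagonists, the co-receptors Lrp5 and Lrp6, the receptor Lgr4, 5 Frizzleds and all tested ligands but Wnt2b. Lrp5 had an SD of 0.014 and Lgr4 of 0.017 on the log2 scale.

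Some markers of other cell types also differed between the libraries by the chi-square test, in different directions within a list. With the common dispersion added, the markers that passed were highest in ATR 2, apart from Mfap5 in ATR 3. For these and the later lists, the share over all genes tested was 23.2% by the chi-square test and 3.25% with the common dispersion. Of all genes that passed the chi-square threshold, 35.5%, 32.1% and 32.4% were highest in ATR 1, ATR 2 and ATR 3. Of 10 tested stromal fibroblast markers, 9 passed the chi-square threshold, 2 of them highest in ATR 1, 4 in ATR 2 and 3 in ATR 3. With the common dispersion 5 passed: Pdgfra, Thy1, Prrx1 and Col15a1, all highest in ATR 2, and Mfap5, highest in ATR 3. The list summed to 751, 788 and 793 TPM. The fibroblast antigen gene Thy1 stood at 23.23, 104.14 and 82.65 TPM and was lowest in ATR 1. Col14a1, a collagen of fibroblasts, stood at 332.66, 266.57 and 305.08 TPM and was highest there, but did not pass with the common dispersion. Col15a1, another collagen gene, stood at 4.70, 6.47 and 0.70 TPM and was lowest in ATR 3.

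Of 10 tested surface epithelium markers, 7 passed, 2 of them highest in ATR 1, 3 in ATR 2 and 2 in ATR 3. With the common dispersion 3 passed, Krt7, Msln and Aldh1a2, all highest in ATR 2. The list summed to 2380, 2259 and 2322 TPM. Its most abundant member Upk3b stood at 1513, 1316 and 1379 TPM and was lowest in ATR 2, but did not pass with the common dispersion. Msln stood at 35.25, 51.62 and 30.33 TPM, and Aldh1a2, a retinoic acid synthesis enzyme, at 2.31, 5.79 and 2.59 TPM. Of the 9 smooth muscle and pericyte markers, which summed to 17708, 16537 and 16367 TPM, 7 passed, 4 of them highest in ATR 1 and 3 in ATR 2. With the common dispersion 2 passed, desmin (Des) and Pdgfrb, both highest in ATR 2. Des stood at 7.22, 20.41 and 7.69 TPM. The smooth muscle myosin Myh11, at 67.45, 49.10 and 55.23 TPM, did not pass with the common dispersion. Granulosa markers summed to 3363, 3095 and 2964 TPM, with 10 of 16 tested passing. Of these, 6 were highest in ATR 1, 3 in ATR 2 and 1 in ATR 3. Only Fst, at 53.28, 84.59 and 59.72 TPM, passed with the common dispersion added to the chi-square test (adjusted p = 0.00696). Of 6 endothelial markers measured, 3 had enough reads to be tested and 0 passed the chi-square threshold, with or without the common dispersion. With the dispersion 0 had an unadjusted p under 0.05. In the stromal fibroblast, surface epithelium, smooth muscle and granulosa lists 6, 3, 2 and 3 had. The part of cell composition in the differences of Wnt members was not tested.

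Most of the cell cycle genes listed were highest in ATR 3, as Tcf7 and Lef1 were. Of 18, 15 passed the chi-square threshold, against 23.2% of all genes tested, while Mcm2, Tyms and Birc5 did not pass. All 15 were highest in ATR 3, as were 32.4% of all genes that passed. With the common dispersion 2 passed, against 3.25% of all genes. The summed level of the list was 554, 513 and 637 TPM, so ATR 2 was lowest, unlike for Tcf7 and Lef1. Their part in the differences of Tcf7 and Lef1 was not tested.

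The listed pathway genes of the cytoplasm and nucleus were well supplied. All 34 reached 1 TPM, with a median of 38.5 TPM. Ctnnb1, which encodes beta-catenin, stood at 314.49, 310.46 and 332.07 TPM, and the kinase genes Csnk1a1 and Gsk3a at 394 ± 6.74 and 111 ± 3.65 TPM. Of the TCF family members outside the naming rule, Tcf7l1, which often acts as a repressor, stood at 27.3 ± 2.81 and Tcf7l2 at 11.2 ± 1.23 TPM. Both were above Tcf7 and Lef1 in each library. Of the 34, 7 passed the chi-square threshold, a share near the 23.2% of all genes tested. With the common dispersion 0 passed, and 0 had an unadjusted p under 0.05. In the lists of cell cycle genes, beta-catenin targets, Wnt secretion and other receptors 7, 5, 4 and 2 had.

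Of 14 genes measured for Wnt secretion and extracellular control, 11 reached 1 TPM. Wls, which carries Wnt proteins to the cell surface, stood at 941 ± 45.9 TPM, and Porcn, which attaches their lipid, at 7.19 ± 0.737 TPM. Of the 11 tested, 7 passed the chi-square threshold and 3 passed with the common dispersion. Those 3 were Gpc3, a heparan sulphate proteoglycan, Trabd2b, a protease that cleaves Wnts, and Serpinf1, which encodes pigment epithelium-derived factor. Gpc3 had the same ordering as Sfrp2, at 1.64, 10.51 and 0.77 TPM, a scaled ratio of ATR 2 to ATR 1 of 6.56 (4.48 to 9.91). Serpinf1 stood at 16.65, 28.05 and 39.90 TPM. Notum, a feedback enzyme that removes the Wnt lipid, and Sost, an antagonist of bone, were under 1 TPM.

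A list of 12 other Wnt receptors and related genes, not all of them receptors, was led by Ryk at 314 ± 5.77 and Ptk7 at 81.0 ± 3.63 TPM. Of the 12, 6 passed the chi-square threshold: Ror2, Ptk7, Celsr1, Celsr2, Tspan12 and Mcc. Only Ror2, a receptor of Wnt5a, passed with the common dispersion (2.09, 4.0 and 3.75 TPM, adjusted p = 0.031). Ror2 was lowest in ATR 1, while Ror1 stood at 2.65 ± 0.142 TPM.

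Among 21 genes measured that beta-catenin is known to induce in some tissues, 17 reached 1 TPM, with a median of 9.49 TPM. Of 17 tested, 11 passed the chi-square threshold, of which 5 were highest in ATR 3, 4 in ATR 1 and 2 in ATR 2, and 2 passed with the common dispersion. Ccnd1, cyclin D1, stood at 16.72, 28.10 and 42.96 TPM, the order also seen for Tcf7 and Lef1. Nkd2, a feedback inhibitor, stood at 3.21, 6.12 and 3.75 TPM, and its relative Nkd1 at 4.01 ± 0.712 TPM. Bmp4 and Bambi were highest in ATR 1, at 300.74 and 140.85 TPM there, but neither passed with the common dispersion. The targets in this list did not share a single order of libraries.

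The deposited counts and TPM values did not always move together. Their ratio follows the transcript length assigned to a gene in a library. Of the 28 members at 1 TPM or more, 4 had a coefficient of variation of this ratio above 5%. This is a larger share than the 512 of 12453 genes (4.11%) at that level with reads in every library. They were Lef1 at 24.8%, Wnt2b at 14.1%, Wnt11 at 7.44% and Tcf7 at 6.05%. Lef1 had 16.8, 27.9 and 22.6 reads per TPM, so ATR 3 to ATR 1 was 4.40-fold in scaled reads and smaller in TPM. Wnt2b had 55.0, 44.4 and 42.7 reads per TPM, which makes its ATR 2 excess over ATR 1 larger in TPM than in reads. Both genes still passed the chi-square threshold when this ratio entered the library sizes, at adjusted p of 0.00217 and 3.58e-10. Lef1 and Wnt2b are among 12 of the 46 members with a count more than 0.001 from a whole number in some library, as 24.2% of all genes have. For such genes, reads may be shared with other genes. Fzd1 and Fzd2 are among the 12 by a small fraction of a read (Fzd1 has 3452.99 in ATR 2 and Fzd2 has 1416.02 in ATR 3).

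**Figure D5:**
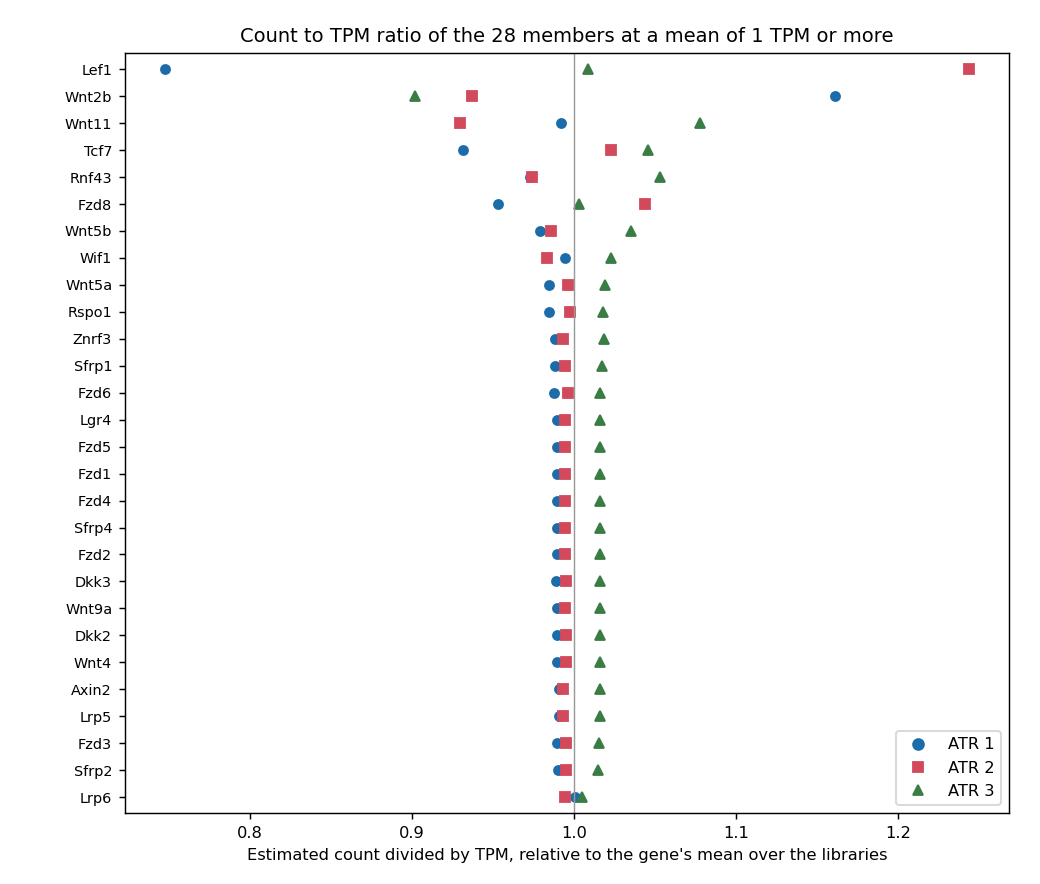
Estimated count divided by TPM in each ATR library, relative to the gene's mean, for the 28 members at 1 TPM or more, ordered by its variation; each symbol is 1 library. Lef1 and Wnt2b, at the top, spread widely, while most members lie close to 1.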

How the data were processed

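Poly(A) RNA was read in pairs of 150 bases, per the labels' protocols. The authors deposited a TPM value and an estimated count per gene and library, per the file headers. Upstream tools were StringTie 2.1.5, HISAT2 2.2.1 and fastp 0.20.1, and the builds Rnor_6.0 and GRCm38, per the submitters' processing notes, which give no roles. RefSeq (GRCr8) gave names, gene neighbours and promoters, and 16392 of 17525 identifiers (93.5%) were found in it. Estimated counts were rounded and scaled by TMM in edgeR 4.0.16 (R 4.3.3). Genes with at least 30 reads in all entered the chi-square test, with Benjamini-Hochberg adjustment over all of them. In a second version, the variance included edgeR's common dispersion, a biological coefficient of variation of 8.23% from these same libraries. Intervals of ratios are exact (Clopper-Pearson, 95%) and hold counting error alone, since reads carry no molecular identifiers.

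The members and gene lists were chosen with earlier results of these data known. A member was named with its values if it reached 10 TPM, passed the chi-square threshold or led its role, and others were added after their values were seen. Values in other lists were named if among the 5 highest or past the threshold, with the same exception. Alternatives were other scalings (library totals, DESeq2 1.42.0 size factors), read minima, whole counts, a left-out library, implied transcript length and Fzd7 by identifier. The last 2 were chosen after seeing the data. Python 3.11.15, numpy 2.4.6, pandas 2.3.3, scipy 1.17.1 and matplotlib 3.10.9 were used.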

Additional observations from a re-analysis of the deposited data

How the results depend on the processing

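No paired analysis was possible because no Control column was analysed, and the alternatives planned for ATR against Control were not run. The count of all genes past the chi-square threshold was 3089. It was 433 with the common dispersion added and 1525 to 2222 with 1 library left out, where fewer libraries also give less power. The count of members past it was 9. It was 3 with the common dispersion, 5 among genes with whole counts alone, where 22 members were tested, and 3 (without ATR 2) to 7 (without ATR 3) with 1 library left out. Under library totals, DESeq2 size factors, other read minima, implied transcript length and Fzd7 by identifier it was 8 to 10. Rnf43 passed when implied length was used (adjusted p = 0.043), and Dkk4 with a minimum of 10 reads in all. Members at 1 TPM or more numbered 19 to 31 over the limits tried. Members with under 30 reads in all cannot be ranked at this depth.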
